A study of Drosophila melanogaster with 3 samples.

Results

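The genes examined here serve glia, the support cells of the fly brain, in taking up and converting released transmitter, or mark glial identity. They were chosen by symbol (Eaat1, Eaat2, Gat, Gs2, e, alrm, wrapper and repo) and matched to FlyBase gene IDs. Of the 8 genes, 6 had a line among the 11922 gene IDs and were analysed, while Gat and alrm are not analysed here. Expression was measured in 3 cells taken from dissected brains of flies that were 5 days old and had been kept on normal food. All belonged to a single group of flies that carried nSyb-AD-AKHR-BD-GAL4;UAS-mCD8gfp. In such flies a membrane GFP marks cells in which the promoters of nSyb, a pan-neuronal gene, and of AKHR, the receptor of the fly's adipokinetic hormone, are active together. The marked cells are called AKHR+ cells 1, 2 and 3 after the numbers in their labels, and the values of cell 3 were headed with another sample number. The study's methods describe cells picked individually and the labels name each library as an AKHR neuron, but the labels also speak of pooled single cells. Each library is treated here as labelled.

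Neurons release glutamate, GABA and histamine at synapses, and glia clear these transmitters and turn them into inactive forms that neurons can reuse. Eaat1 and Eaat2 carry amino acid transmitters into glia, and Gat does so for GABA. Gs2 is the cytosolic glutamine synthetase, which converts glutamate to glutamine. The ebony enzyme, encoded by e, joins beta-alanine to histamine or dopamine. In adult brains wrapper, a cell-surface protein of the immunoglobulin superfamily, marks cortex glia, which enclose neuronal cell bodies. The homeodomain transcription factor repo is expressed in most glia, and alrm marks astrocyte-like glia.

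Expression was given as FPKM, the fragments of a gene divided by its exon length in kilobases and by the mapped total of the library, so genes can be ordered within a cell. Depth was not given. From the steps between low values it was estimated at 6620000, 6240000 and 6580000 fragments in cells 1, 2 and 3. The number of genes detected at an FPKM of at least 1 was 4389, 6046 and 5626, so cell 1 had the fewest at nearly the same estimated depth.

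All 6 genes were detected at an FPKM of at least 1 in every cell, against 31.1% of all genes, and 36.1% of all genes were above 0 in every cell. At an FPKM of at least 10 in every cell 4 of the 6 passed (Eaat1, Eaat2, Gs2 and wrapper), against 20.6% of all genes. At an FPKM of at least 100, wrapper and Gs2 passed, 2 of the 6 against 4.43%. In order of mean log2(FPKM + 1) the genes were wrapper, Gs2, Eaat1, Eaat2, e and repo. Together they took 0.236%, 0.232% and 0.237% of the summed FPKM in cells 1, 2 and 3 (mean 0.235% ± 0.0024, SD, n = 3). This share differed little between cells although single genes did, and wrapper and Gs2 made up 95.0%, 78.0% and 81.0% of it.

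**Figure D1:**
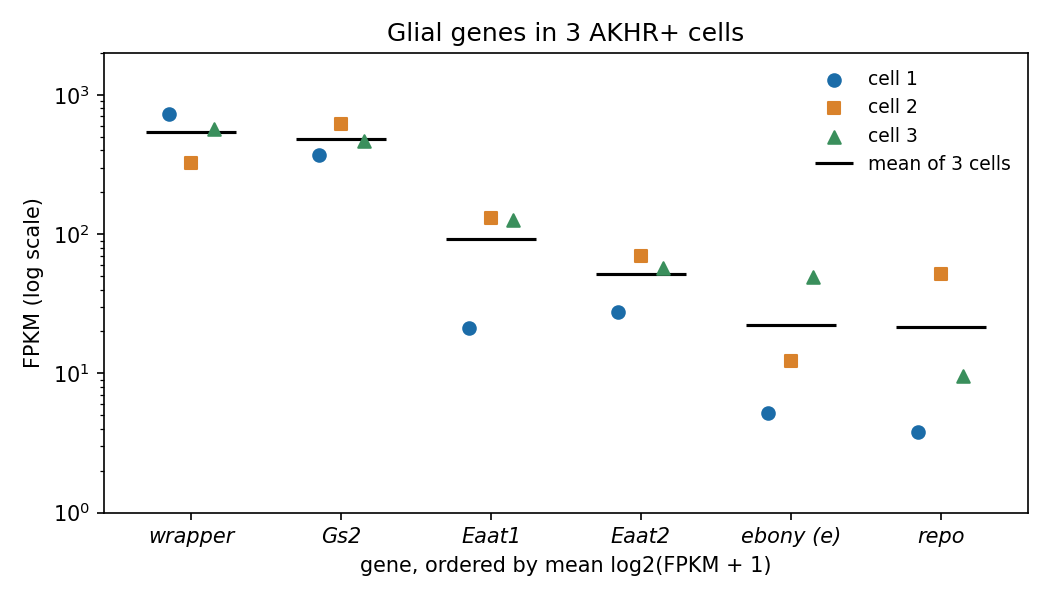
FPKM of the 6 glial genes (logarithmic axis) in cells 1, 2 and 3, with a line at the mean of the 3 cells. The points of wrapper and Gs2 lie between 323 and 732, and those of repo spread from 3.77 to 51.5.

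Uptake was represented by Eaat1 and Eaat2. Eaat1 (FBgn0026439, chromosome 2L from 9333567 to 9341925, plus strand, BDGP6) encodes the main high-affinity glutamate transporter of the fly and is used as a marker of astrocyte-like glia. Eaat1 had an FPKM of 21.3, 130.5 and 127 in cells 1, 2 and 3 (mean 92.9 ± 62.1, SD, n = 3). Cells 2 and 3 were thus close together, and the highest cell was 6.13-fold above cell 1. Without cell 1 the mean was 129. Ranked among all genes of its cell, those listed at 0 included, Eaat1 reached the 76.6, 94.9 and 93.7 percentiles. Among genes above 0 it was at the 44.0 percentile in cell 1, below the median, and at 90.4 and 87.7 in the other two.

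Eaat2 (FBgn0026438, chromosome 2L from 737212 to 744395, minus strand) encodes a related transporter that carries aspartate and taurine and is found in ensheathing glia. Its FPKM was 27.7, 69.6 and 57.0 (mean 51.4 ± 21.5). Cell 1 was again lowest, but its distance to the highest cell was smaller than for Eaat1 (highest over lowest 2.51). Within cells the 2 transporters changed places, as Eaat1 was at 0.768 times the FPKM of Eaat2 in cell 1 and at 1.88 and 2.23 times in cells 2 and 3. The genes are paralogs, and how reads that fit both were counted is not given in the sources used here.

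Glutamate conversion was carried by the most even gene of the group. Gs2 (FBgn0001145, chromosome X from 11422832 to 11430197, plus strand) had an FPKM of 370, 615 and 469 (mean 484 ± 123, SD, n = 3). The 3 cells differed by less than 2-fold (highest over lowest 1.66), and Gs2 reached the 98.1, 98.8 and 98.6 percentiles of all genes. The mitochondrial glutamine synthetase gene Gs1 had an FPKM of 80.6, 170 and 106. Gs2 was therefore 4.59-, 3.62- and 4.44-fold higher than Gs1 in the same cells, a mean difference of 2.06 ± 0.18 in log2(FPKM + 1). Both genes were lowest in cell 1 and highest in cell 2. Reads shared between these paralogs were not examined.

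Histamine conversion was represented by ebony. The gene e (FBgn0000527, chromosome 3R from 21229839 to 21237177, minus strand) had an FPKM of 5.21, 12.2 and 49.5 (mean 22.3 ± 23.8, SD, n = 3). Its SD exceeded its mean, and the mean rested on cell 3, without which it fell to 8.72. The value of cell 1 corresponded to about 108 fragments (95% Poisson interval 88.9 to 131) and that of cell 3 to about 1024 (962 to 1089). At the estimated depth the cells thus differed by more than the counting error of sequenced fragments, which is the only error these intervals cover. In cells 1 and 2 e stood below the median of the genes above 0 (25.7 and 32.9 percentiles) and in cell 3 above it (70.2).

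Glial identity was represented by wrapper and repo, which lay at opposite ends of the order. The gene wrapper (FBgn0025878, chromosome 2R from 22379637 to 22382675, plus strand) had an FPKM of 732, 323 and 568 (mean 541 ± 206, SD, n = 3). Unlike the other 5 genes it was highest in cell 1 and lowest in cell 2. It held place 94 from the top of all genes in cell 1, place 233 in cell 2 and place 146 in cell 3. Its level was close to that of the abundant synaptic gene Syx1A in cells 1 and 2, at 1.08 and 1.09 times its FPKM, and 1.70 times in cell 3.

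The gene repo (FBgn0011701, chromosome 3R from 18236192 to 18239602, plus strand) had an FPKM of 3.77, 51.5 and 9.63 (mean 21.6 ± 26.0, SD, n = 3). Cell 2 stood apart from the others, and without it the mean fell to 6.70. About 74.8 fragments lay behind the value of cell 1 (95% Poisson interval 58.8 to 93.7), 962 behind cell 2 (902 to 1025) and 190 behind cell 3 (164 to 219). The 3 intervals did not overlap, so the difference exceeded the counting error of sequenced fragments at the estimated depth. This was not particular to repo. The intervals of Gs2, the most even gene, did not overlap either (4387 to 4652, 6916 to 7247 and 5544 to 5841 in cells 1, 2 and 3). The share of all genes for which this holds was not computed. The cDNA had been amplified before sequencing, and error from that step is not covered. Against elav, an RNA-binding protein gene used as a neuronal marker, repo was at 0.865 and 0.942 times the FPKM in cells 1 and 2 and at 0.192 times in cell 3. Exons of repo overlap those of CG7156 on the other strand by 183 bases, 6.11% of the exon length of repo. The FPKM of CG7156 was 0, 1.53 and 15.3, so that it was highest in cell 3 and repo in cell 2. Whether counting used strand is not given in the sources used here. For the other 5 genes no annotated gene overlapped (0 genes).

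The order of the 6 genes was then compared between cells. The order came from the means of the same 3 cells, so the mean difference of each pair was positive in advance. The p-values below do not allow for this choice. Of the 15 pairs of genes 12 had the same order in every cell, and the same 12 had a mean within-cell difference larger than its SD. Among the 5 pairs of neighbours in the order only 2 did so, Gs2 above Eaat1 and Eaat2 above e. Gs2 exceeded Eaat1 by 2.72 ± 1.17 in log2(FPKM + 1) and Eaat2 exceeded e by 1.61 ± 1.22 (SD, n = 3). Flipping signs over cells, an exact permutation test, gave p = 0.25 for each (two-sided, not adjusted). This p is the smallest that 3 cells can give, so the design could not reach 0.05 for any pair.

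The other neighbours did not differ beyond their spread between cells. The difference between wrapper and Gs2 was 0.11 ± 0.97, with wrapper higher in cells 1 and 3 (p = 0.75 by the same exact test), and without cell 1 it changed sign to -0.32. Eaat1 exceeded Eaat2 by 0.56 ± 0.81 on the same scale, in cells 2 and 3 but not in cell 1 (exact test, p = 0.5). The difference between e and repo was 0.21 ± 2.12 (positive in cells 1 and 3, exact test, p = 0.75), and without cell 3 it changed sign to -0.80. Grouped by the pairs that agreed in these same 3 cells, wrapper and Gs2 lay above Eaat1 and Eaat2, and these above e and repo. This grouping was drawn from the cells it describes and was not tested in others. Its lower step was narrow in places. Eaat2 exceeded e by only 0.20 in cell 3 and repo by 0.43 in cell 2, in log2(FPKM + 1).

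**Figure D2:**
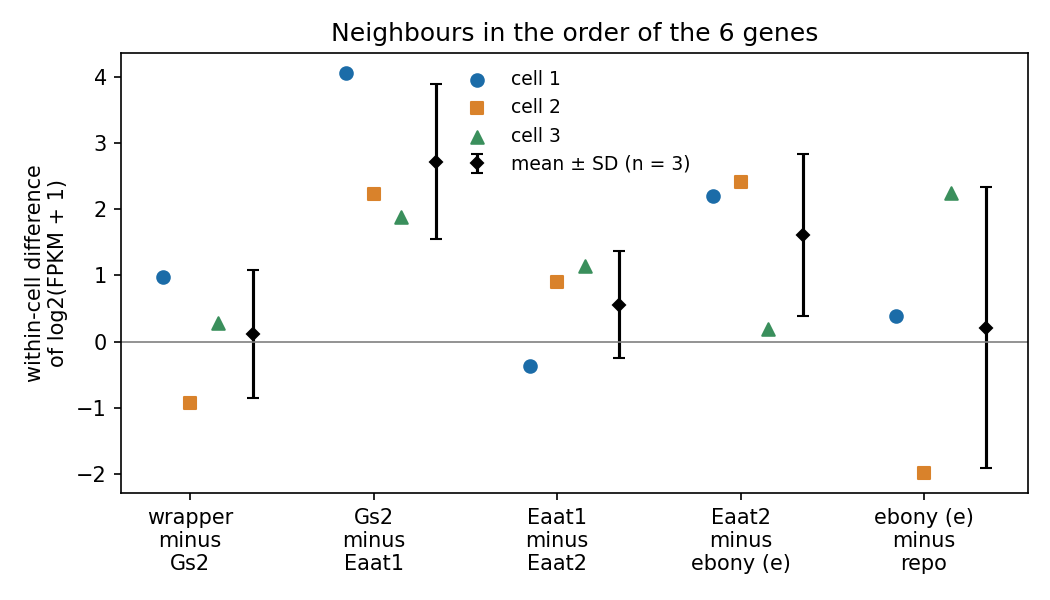
Within-cell differences of log2(FPKM + 1) between neighbours in the order of the 6 glial genes, for cells 1, 2 and 3, with the mean and SD of the 3 cells. The points of Gs2 minus Eaat1 and of Eaat2 minus e are all above 0, from 1.88 to 4.06 and from 0.20 to 2.42, and those of the other pairs lie on both sides of it.

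The spread between cells differed from gene to gene. Among the 3709 genes detected in every cell the median difference between the highest and lowest cell was 1.59 in log2(FPKM + 1). Gs2 (0.73), wrapper (1.18) and Eaat2 (1.30) lay below this median, and Eaat1 (2.56), e (3.02) and repo (3.46) above it. Lower genes varied more in general, with a median of 1.80 for the 2518 genes at a mean FPKM from 10 to 100 and 1.16 for the 825 genes from 100 to 1000. Within the lower class repo was at the 86.1 percentile, e at 79.0, Eaat1 at 70.6 and Eaat2 at 32.5. Within the upper class wrapper was at the 51.6 percentile and Gs2 at 24.7.

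**Figure D3:**
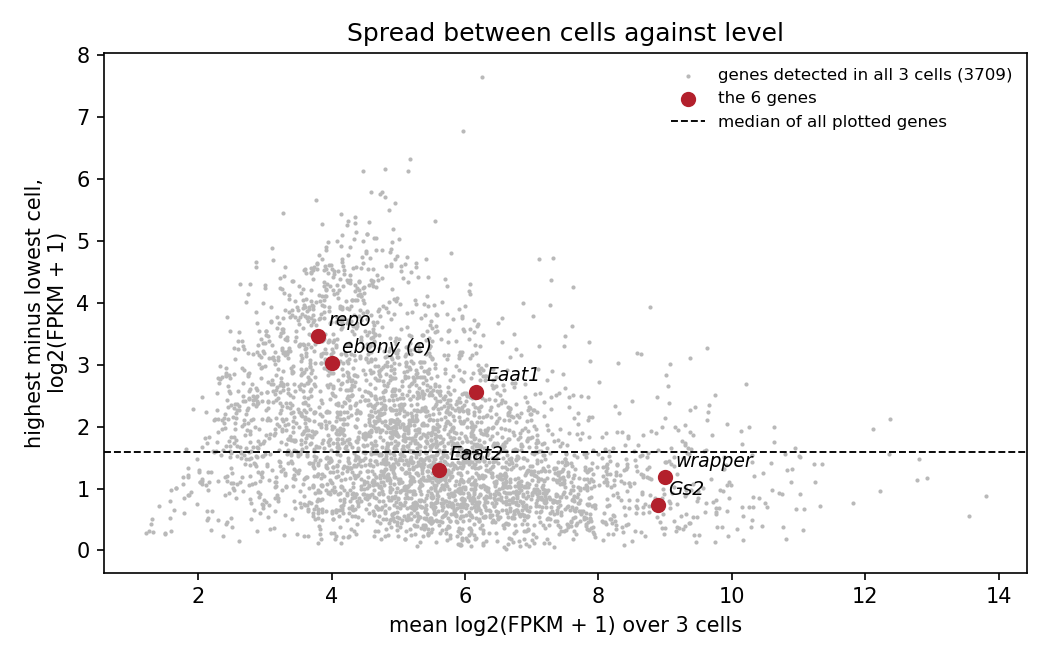
Difference between the highest and lowest cell in log2(FPKM + 1) against mean log2(FPKM + 1), for the 3709 genes detected in all 3 cells (grey) and the 6 glial genes (red), with the median of 1.59 dashed. Points to the right, at higher levels, tend to lie lower, and repo, e and Eaat1 are above the dashed line.

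Across cells, 5 of the 6 genes were lowest in cell 1, against 38.5% of the genes detected in every cell, and wrapper was lowest in cell 2 (33.8% of those genes) and 0 of the 6 in cell 3 (27.7%). The 4 genes Eaat1, Eaat2, Gs2 and repo were highest in cell 2, against 32.0% of the genes detected in every cell, with wrapper highest in cell 1 (38.2%) and e in cell 3 (29.8%). These counts stayed at 5 and 4 when cells were rescaled to a common sum or to a common median. Fewer genes were detected in cell 1 than in the other cells, and the part of this in the low values of cell 1 was not tested.

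The other genes of the transmitter pathways were described from a list of 20 genes, of which 15 had a line. In all, 10 were detected in every cell, against 31.1% of all genes, and 5 in some cells. All 4 glutamate genes analysed were detected in every cell. The glutamate dehydrogenase gene Gdh had an FPKM of 152, 281 and 124, and the vesicular glutamate transporter gene VGlut 18.4, 50.3 and 43.1. The FPKM of VGlut was below that of Eaat2 in every cell, by a factor of 1.51, 1.38 and 1.32, and below that of Eaat1 by 1.16, 2.59 and 2.94. Gad1, which makes GABA from glutamate, had an FPKM of 398, 210.2 and 168, above Gs2 in cell 1 and below it in cells 2 and 3.

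For GABA, all 3 genes analysed were detected in every cell. Ssadh, the dehydrogenase that completes GABA breakdown, had an FPKM of 250.3, 338 and 519 and the highest mean of the 15 genes on the log2 scale. The vesicular GABA transporter gene VGAT had 92.8, 16.7 and 70.9, and the GABA receptor gene Rdl 31.0, 24.2 and 27.1. The transporter Gat and the GABA transaminase gene Gabat are not analysed here, so uptake of GABA was not covered.

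The histamine, beta-alanine and amine genes differed widely in level. Of 8 genes with a line 3 were detected in every cell and 5 in some, and 4 were listed at 0 in cell 1. The 3 of 8 are near the 31.1% of all genes detected in every cell. The gene t (tan) encodes the hydrolase that undoes the reaction of ebony. Its FPKM was 3.73, 6.63 and 10.4, lowest in cell 1 and highest in cell 3, as for e, and e was at 1.40, 1.84 and 4.78 times its level. The gene b (black) encodes the decarboxylase that makes beta-alanine. Its FPKM was 126, 2.98 and 20.4, so that it was highest in cell 1, where e was lowest. Vmat, which loads amines into vesicles, was the highest of the list by mean log2(FPKM + 1), at an FPKM of 154, 71.2 and 95.4, with a log2 range between cells of 1.10. Hdc, the histamine synthesis gene, was listed at 0, 2.78 and 11.0, and the histamine receptor genes ort at 0, 14.2 and 16.4 and HisCl1 at 0, 1.73 and 26.4. Like e and t, Hdc, ort and HisCl1 had their lowest value in cell 1 and their highest in cell 3. The rest of the list did not share this, as b and Vmat were highest in cell 1 and BalaT and ine in cell 2. The FPKM of ine was 5.00, 5.35 and 0.417, lowest in cell 3.

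**Figure D4:**
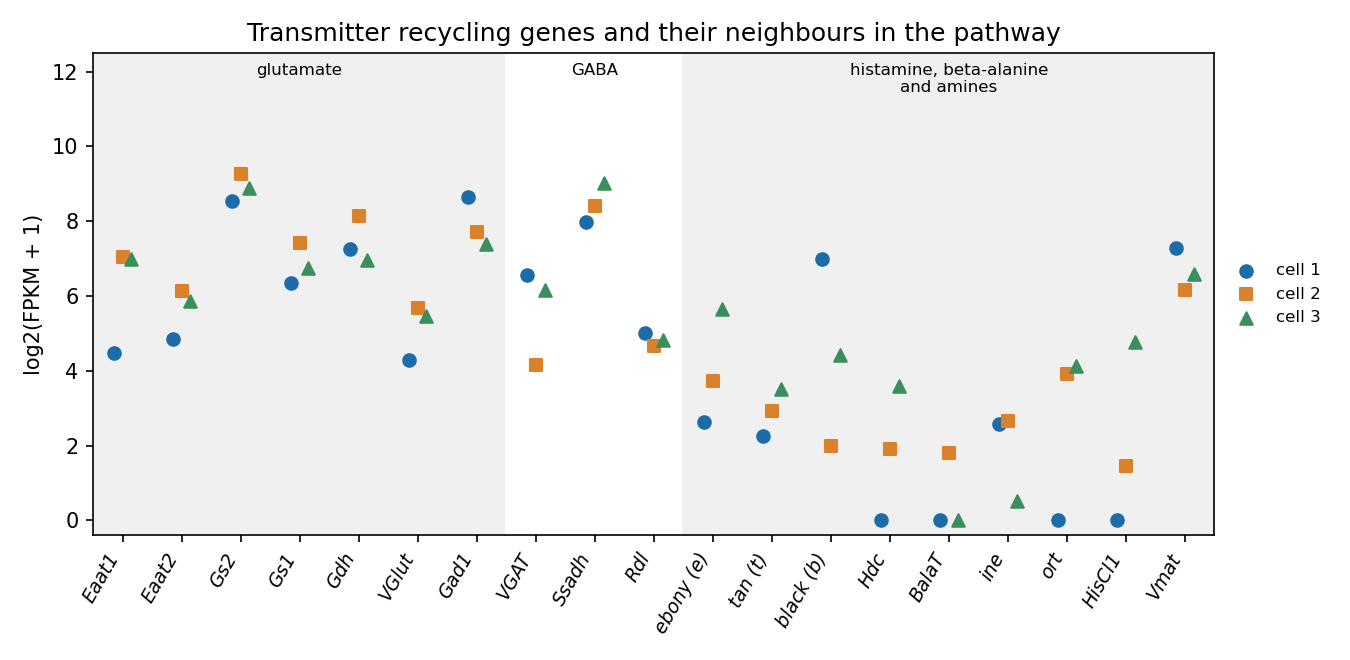
Level in log2(FPKM + 1) of the transmitter recycling genes and of the analysed genes of their pathways in cells 1, 2 and 3, grouped by transmitter. The glutamate and GABA genes lie above 4 in every cell, whereas Hdc, ort and HisCl1 are at 0 in cell 1, and BalaT is at 0 in cells 1 and 3.

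The labelled cell type was then examined with marker lists, which did not hold AkhR, the gene of AKHR. AkhR was detected in every cell, with a mean log2(FPKM + 1) of 2.44 and a range between cells of 2.43. The neuronal markers nSyb and para are not analysed here. All 6 neuronal markers analysed (elav, Syt1, brp, Syx1A, fne and CadN) were detected in every cell, against 31.1% of all genes. The summed FPKM of these 6 markers was 945, 831 and 672 in cells 1, 2 and 3. The largest part of the sum in each cell was Syx1A, at an FPKM of 675, 296 and 335, highest in cell 1. By contrast elav (4.36, 54.6 and 50.1), Syt1, brp and fne were highest in cell 2, and CadN in cell 3. The summed FPKM of the 6 glial genes was 1160, 1201 and 1280, above that of the 6 neuronal markers analysed in each cell. Of this glial sum 95.0%, 78.0% and 81.0% came from wrapper and Gs2. The sums compare lists and not cell types. If a library held more than a single cell, fewer cells of a type and less RNA per cell cannot be told apart. Of the octopamine markers, the synthesis genes had an FPKM of 0, 13.3 and 8.58 (Tdc2) and of 0, 7.34 and 12.6 (Tbh), and the amine transporter gene Vmat one of 154, 71.2 and 95.4. Vmat was highest in cell 1, where the other two were at 0.

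Of 12 further glial markers with a line 4 were detected in every cell, 6 in some and 2 in 0 cells. The 4 of 12 are near the 31.1% of all genes detected in every cell. The highest was nrv2, a sodium pump subunit gene used as a glial marker, with an FPKM of 1585, 769.9 and 1764. Like wrapper it was lowest in cell 2, and it exceeded wrapper 2.17-, 2.39- and 3.10-fold. Of the cortex glia list Cyp4g15, a cytochrome P450 gene, was at 46.6, 70.7 and 101, so wrapper was 15.7-, 4.57- and 5.61-fold higher. The cortex genes thus did not keep a fixed ratio between cells, as wrapper was highest in cell 1 and Cyp4g15 lowest there.

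Of the ensheathing glia list, which holds Eaat2, the transporter gene CG9657 (rumpel) had an FPKM of 0.220, 64.2 and 47.9, and the engulfment receptor gene drpr 4.29, 28.7 and 36.7. All 3 genes were lowest in cell 1, and CG9657 fell below the detection threshold there. Of the astrocyte-like list only Eaat1 was analysed, so a signal of that class could not be separated from Eaat1 itself. Of the surface glia list, which covers the blood-brain barrier, the sugar transporter gene Tret1-1 was at 271, 116 and 111 in cells 1, 2 and 3. The barrier receptor gene moody was at 4.54, 50.1 and 0.613, and the export pump gene Mdr65 at 34.9, 36.3 and 0.111. The septate junction gene Gli was above 0 only in cell 2 (3.25).

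The regulatory genes loco and pnt were low and, like repo, had their highest value in cell 2. This was not particular to them, as CG9657, moody, Mdr65, Gli and the neuronal markers elav, Syt1, brp and fne peaked there too. Cyp4g15, drpr, Tret1-1, nrv2 and wrapper did not, and nrv2 and wrapper were lowest in cell 2. The G protein signaling regulator gene loco was at 0.155, 5.54 and 0, and the transcription factor gene pnt at 0, 8.62 and 1.51. The glial fate genes gcm and gcm2, which act in embryonic development, were listed at 0 in all cells. For a gene with the transcript length of repo, 3 fragments would give an FPKM of 0.151, 0.160 and 0.152, a floor that covers counting error only.

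**Figure D5:**
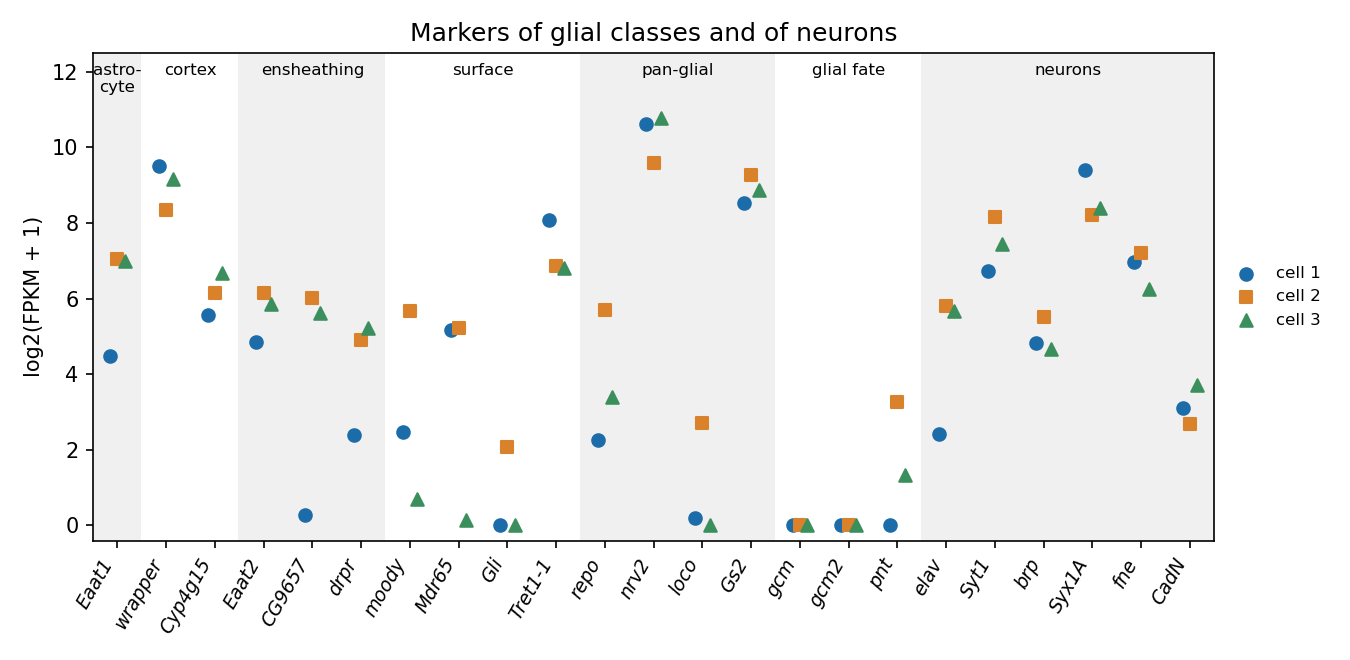
Level in log2(FPKM + 1) of markers of glial classes and of neurons in cells 1, 2 and 3. The ensheathing genes lie lower in cell 1 than in the others, and gcm and gcm2 are at 0 throughout. Among the genes highest in cell 2 are repo, loco, Gli and pnt and the neuronal markers elav, Syt1, brp and fne.

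Markers of other tissues were present too. The 6 photoreceptor markers took 0.802%, 1.55% and 0.510% of the summed FPKM in cells 1, 2 and 3, all 6 being detected in every cell, with ninaE at 1217, 3838 and 1626. Their share was highest in cell 2, as were Eaat1, Eaat2, Gs2 and repo, and lowest in cell 3, where e was highest. The 6 fat body markers took 4.10%, 5.70% and 6.09%, with Fbp1 and Fbp2 at 0 in all cells. The 4 muscle markers summed to an FPKM of 1.51, 127 and 2.21, with Act88F at 0 in all cells and Mlc2 at 110 in cell 2. The 3 haemocyte markers analysed summed to 10.4, 6.15 and 9.09, with eater at 0 in all cells. The part of these tissues in the levels of the 6 glial genes was not tested.

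For each gene the nearest pattern among all other annotated genes was found by the Euclidean distance of log2(FPKM + 1) over the 3 cells. The nearest gene was CG8861 for Eaat1 (distance 0.25), CG10508 for Eaat2 (0.29), RpL11 for Gs2 (0.16), Sulf1 for e (0.48), CG6044 for wrapper (0.24) and CG42846 for repo (0.31). The number of genes within a distance of 0.5 was 25 for Eaat2, 10 for Gs2, 9 for Eaat1, 4 for wrapper, 2 for repo and 1 for e. None of the nearest genes was another of the 6, which were left out of this search.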

How the data were processed

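FPKM per gene, deposited for 3 libraries, had been computed by the authors from trimmed and quality-filtered reads that aligned to the fly genome. The submitters' processing notes name HISAT, and the quantifier, build and annotation are not given in the sources used here. The study's methods describe amplification of the cDNA, and no molecular identifiers are described. FPKM is not a count, so no count model was used.

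The 12180 lines of each library held 11922 gene IDs. Values of the 117 repeated IDs were averaged (the 6 genes had 1 line each). Symbols came from the BDGP6.54 annotation (Ensembl release 115) and were found for 11794 IDs. Levels were analysed as log2(FPKM + 1), which understates differences of low genes. Depth was taken as the number of fragments that placed most low values (up to 5 fragments, genes with 1 transcript) within 0.1 of a whole number. This held for 68.7%, 49.5% and 65.8% of them in cells 1, 2 and 3, against 15.3%, 18.0% and 15.3% at the median step tried. Depths and fragments per gene, for which the mean transcript length was used, are therefore estimates. Intervals are exact Poisson intervals of the estimated fragments and do not cover error from amplification. Replicates are separate libraries of 1 group. The p-values set a mean within-cell difference against the same differences with signs flipped over these libraries, and speak only of these 3 libraries.

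The genes and lists were chosen with earlier results of these data known, and the pairs compared by fold after their values were seen. Named genes were the 8 listed, the nearest pattern of each, list genes of the same step or class, and AkhR. No sequence table was used here. Statistics used Python 3.11.15, numpy 2.4.6, pandas 2.3.3 and scipy 1.17.1. The depth estimate was tested on simulated data, and the sign-flip test and the exon overlap on small inputs with known results. Alternatives were other thresholds, a pseudocount of 0.1, rescaling, summing repeated lines and leaving out each cell.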

Additional observations from a re-analysis of the deposited data

How the results depend on the processing

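For 25 results 82 alternative values were obtained. Of these 69 were kept, 11 moved and 2 reversed. Those kept held their direction, stayed within the spread between cells or, for the count of genes detected, stayed within a set ratio. The fall of that count from 6 to 4 at an FPKM of at least 10 was among the 69. The difference between wrapper and Gs2 lay between -0.32 and 0.63 when a cell was left out, reversing without cell 1 (-0.32), and that between e and repo lay between -0.80 and 1.31, reversing without cell 3 (-0.80). For both, the cells kept disagreed in sign.

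Rescaling each cell to a larger common sum took the mean of wrapper to 1055, of Gs2 to 936, of Eaat1 to 177 and of Eaat2 to 98.8. The means of e and repo rose as well, to 42.0 and 41.7, but stayed within their wide spread between cells. This change of scale left the order of the 6 genes as it was. Rescaling to a common median, chosen after seeing the data, also left that order. Leaving the 10 highest genes out of the sum took the share of the 6 genes to 0.276%. All 6 percentiles were lower among genes above 0 only, since genes at 0 were then left out. Without cell 3 the mean FPKM of e was 8.72, and without cell 2 that of repo was 6.70. Depth limits statements on genes listed at 0 to their floors. No paired analysis was possible because no second condition was sampled.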
